A study of Homo sapiens with 30 samples.

Results

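Ribosome biogenesis and nucleolar genes are described here as a list of 42 protein-coding genes, taken by symbol from the 23710 gene symbols of the count files and the 23616 of the FPKM files. All 42 were found in both kinds of file. The list was set by function, but it was chosen with earlier results of these data known. It holds 4 genes of RNA polymerase I transcription, 7 proteins of small nucleolar ribonucleoprotein particles (snoRNPs), 14 factors of small subunit maturation, 13 factors of large subunit maturation and 4 multifunctional nucleolar proteins.

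Each ribosome is built in the nucleolus. RNA polymerase I copies the ribosomal DNA into a long precursor RNA, snoRNPs modify it, and large sets of assembly factors cut, fold and join it to ribosomal proteins until the subunits leave the nucleus. Growing tumor cells make ribosomes at a high rate, the oncoprotein MYC is a known activator of many of these genes, and in prostate epithelium growth is driven by androgens.

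RNA-seq was performed on 30 samples in 10 groups of 3 replicates. V16D is a castration-resistant derivative of the LNCaP prostate cancer line. MR49F is an enzalutamide-resistant line of the same LNCaP lineage, raised in castrated mice under long enzalutamide treatment. In full serum (10% FBS), V16D and MR49F cells received vehicle or 10 μM enzalutamide (MDV3100), an antiandrogen drug, for 24 hours. In charcoal-stripped serum, which is depleted of androgens, MR49F cells were held for 72 hours and then given, for 24 hours, vehicle, 10 μM enzalutamide, 1 nM DHT (the natural androgen dihydrotestosterone), 500 nM JQ-1 (an inhibitor of BET bromodomain proteins), or JQ-1 together with either ligand. MR49F cells, which were otherwise maintained in enzalutamide, were kept without it before treatment. Each cell type is a single line. The methods call the 3 replicates of a group biological, each pooled from replicate wells, and p-values measure the spread between these samples of 1 line. Levels are relative to each library's total, so a change shared by all genes would not be seen, and fewer cells and less RNA per cell cannot be told apart.

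The counts placed 13170504 to 21154962 reads on genes in each full serum library but 982130 to 1813262 in each charcoal-stripped serum library. The counted share of the assigned reads was 73.0 to 77.8% in full serum and 5.13 to 7.66% in charcoal-stripped serum. In the charcoal-stripped serum counts, 69 of 94 genes below 1 FPKM that lie opposite a gene of at least 20 FPKM had more CPM than in full serum, with medians of 3.39 and 0.362 CPM. The 425 genes with an antisense (-AS) symbol held 1.22 to 1.82% of the counts there and 0.231 to 0.297% in full serum. The sources used here do not say which strand was counted, so the charcoal-stripped serum counts may have been made on the strand opposite to the genes, which was not tested, and a fold change by counts there may carry reads of the opposite strand. The files therefore give 2 readouts there, read counts (tested with edgeR) and FPKM (tested with limma on log2(FPKM + 1)), and each comparison in charcoal-stripped serum is given by both. Of the 42, 9 overlap exons of a gene on the opposite strand by at least 100 bases: FTSJ3, NHP2, NIP7, NOP14, NOP16, POLR1C, TSR1, UTP15 and WDR12. PPAN shares 1374 exonic bases with the read-through gene PPAN-P2RY11 and had a median of 35 counted reads in full serum and 2 in charcoal-stripped serum, so its counts are uncertain. The luminal markers KRT8 and KRT18 were at 109 to 550 and 119 to 523 FPKM, while PTPRC, COL1A2 and CDH5, which mark leukocytes, fibroblasts and endothelium, did not exceed 0.0884 FPKM in any sample. CD68 and COL1A1 of the same marker lists were at 1.31 to 6.42 and 0.616 to 1.77 FPKM. PECAM1 and VWF, the other endothelial markers listed, reached 0.768 and 0.412 FPKM. The part of these 4 genes in the results was not tested. The first MR49F vehicle library in full serum stood apart from its 2 replicates. The numbers of genes called for enzalutamide in MR49F, and by counts between the lines, are given with and without it. Most other values that use this library are given only with it.

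The genes differed widely in level. In MR49F vehicle cells in full serum, NPM1, a histone chaperone and shuttling nucleolar protein, was highest at 1006 ± 14.8 FPKM (SD, n = 3). NCL, the nucleolin gene, followed at 662 ± 78.8 FPKM, and NHP2, a core protein of the H/ACA snoRNPs, at 181 ± 16.9 FPKM. POLR1B, the second largest subunit of RNA polymerase I, had 9.0 ± 1.26 FPKM and UTP20, a scaffold of the small subunit processome, 6.71 ± 0.265 FPKM. The median over the 42 genes was 40.1 FPKM in this group and 30.7 FPKM in V16D vehicle cells. In charcoal-stripped serum vehicle the same 2 genes led, with 463 FPKM for NPM1 and 206 FPKM for NCL, and the median was 16.7 FPKM. Levels in the 2 sera come from separate experiments and were not tested against each other.

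Many of the promoters share one short sequence. The E-box CACGTG, which MYC and related factors can bind and which reads the same on both strands, was searched in the window from 250 bases before to 50 bases after the transcription start in RefSeq (GRCh38.p14). Of the 35 genes with an entry, 17 held it (48.6%), against 26.8% of 112 other ribosome biogenesis genes, 12.8% of the 9407 genes with an entry at 1 FPKM or more in 3 samples, and 8.77% of all 27305. In 13 of the 35 (37.1%) it lay within the 50 bases after the start. At that place 11.6% of the 112 other ribosome biogenesis genes and 1.58% of the expressed genes held it. The windows of 8 of these genes are shown as examples to go with the expression values below, chosen after those values were seen; each runs 5′ to 3′ on the gene's strand, with the E-box in capitals.
DDX21 (chr10:68956604-68956633, plus strand): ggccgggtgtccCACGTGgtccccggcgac
LYAR (chr4:4290068-4290097, minus strand): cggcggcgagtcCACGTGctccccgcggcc
NOL6 (chr9:33473894-33473923, minus strand): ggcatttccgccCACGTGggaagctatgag
WDR43 (chr2:28894658-28894687, plus strand): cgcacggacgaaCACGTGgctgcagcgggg
MRTO4 (chr1:19251807-19251836, plus strand): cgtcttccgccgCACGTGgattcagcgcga
PES1 (chr22:30591880-30591909, minus strand): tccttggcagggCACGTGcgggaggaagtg
GNL3 (chr3:52686026-52686055, plus strand): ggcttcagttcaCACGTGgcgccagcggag
UTP20 (chr12:101280083-101280112, plus strand): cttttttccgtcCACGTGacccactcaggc

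Counted from the transcription start, the first base of the E-box was at position -31 in DDX21, -64 in LYAR and -10 in UTP20, and between positions 4 (WDR43) and 15 (MRTO4) in the remaining genes shown. The promoter entries of NOP16, NCL and NPM1 did not hold these letters, and TCOF1, NOP58, RRS1, BOP1, NOLC1, RRP12 and RRP1B had no entry.

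The first question was what enzalutamide did to these genes in full serum. In V16D cells, 26 of the 42 fell and 1, GNL3, rose by counts, where 37.5% of all 14079 genes tested were called, 19.3% lower and 18.2% higher. The changes were small, with a median log2 fold change of -0.11 over the 42 genes and 0.00 over all genes. TCOF1, which encodes treacle, a cofactor of RNA polymerase I, fell the most. It was at 24.2, 24.5 and 25.5 FPKM with vehicle and at 20.8, 20.3 and 18.7 FPKM with enzalutamide, so the groups did not overlap. By counts it fell by 21.2% (log2 fold change -0.34 ± 0.031 SE, adjusted p = 7.29e-26, edgeR).

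IMP4, a protein of the U3 snoRNP, fell by 0.27 on the log2 scale (SE 0.049, adjusted p = 3.33e-07). BOP1 and RRS1, factors of the large subunit, fell by 0.23 and 0.22, and LYAR, a nucleolar zinc finger protein, fell by 0.22. GNL3, the nucleostemin gene, was at 172, 174 and 180 FPKM with vehicle and at 196, 187 and 189 FPKM with enzalutamide. It rose by 5.73% by counts (adjusted p = 0.00311) and by 8.67% in FPKM + 1 (adjusted p = 0.022, limma). All 4 multifunctional nucleolar proteins fell, as did 9 of 14 small subunit factors, 7 of 13 large subunit factors, 4 of 7 snoRNP proteins and 2 of 4 genes of RNA polymerase I transcription. By FPKM 11 fell and 1 rose, where 30.4% of all genes were called (12.7% lower and 17.7% higher), and with all full serum groups in a single fit 13 of the 42 were called by counts, where 25.3% of all genes were.

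The resistant line gave estimates of the same size with fewer calls. In MR49F cells in full serum, 6 of the 42 fell by counts (TCOF1, LYAR, NOP14, FTSJ3, NOP2 and WDR43), where 8.48% of all genes were called and 4.62% were lower. The median log2 fold change was -0.11. TCOF1 was at 30.2, 31.2 and 29.5 FPKM with vehicle and at 25.7, 26.0 and 25.1 FPKM with enzalutamide, without overlap, and its log2 fold change was -0.29 ± 0.046 (adjusted p = 0.00339, edgeR). It was also the gene called by FPKM (-0.23 ± 0.038, adjusted p = 0.0294, limma), where 4.6% of all genes were called and 2.09% were lower. Its call by FPKM was lost with the replicate block and in 4 of the 6 fits that left out 1 library (adjusted p from 0.0956 to 0.171, limma).

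NOP14, a small subunit processome protein that overlaps its antisense gene, had -0.26 ± 0.072 by counts (adjusted p = 0.0492, edgeR). NOP2, an RNA methyltransferase of the large subunit, had -0.21 ± 0.050 by counts (adjusted p = 0.0304, edgeR). Without the vehicle library that stood apart, 17 of the 42 fell by counts and 2 by FPKM, where 17.8% and 8.07% of all genes were called. Without the enzalutamide replicate 1, 2 or 3 in turn, 1 was called by counts (2.92 to 3.27% of all genes), without vehicle replicate 2 there were 2 (4.61%) and without vehicle replicate 3 there were 10 (12.1%). With all full serum groups in a single fit 19 were called by counts and 7 by FPKM, where 17.7% and 14.8% of all genes were called.

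The difference between the lines in this response was tested directly. None of the 42 was called by edgeR (1 had an unadjusted p under 0.05), by DESeq2 or by limma on FPKM (2 had an unadjusted p under 0.05), where 6.95% of all genes were called by counts and 6.04% by FPKM. The median difference was -0.01, with a range from -0.20 to 0.17 on the log2 scale. In the wider list, PAK1IP1, a large subunit factor, fell with enzalutamide in both lines, by 0.52 in V16D and 0.71 in MR49F by counts, and DCAF13, a small subunit factor, was the one with a difference between the lines by both readouts (-0.33 ± 0.061 by counts, adjusted p = 0.00122, edgeR). Its call by FPKM (adjusted p = 0.0275, limma) was lost in 8 of the 12 fits that left out 1 library, with adjusted p from 0.0529 to 0.0747.

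MYC itself did not pass the test with enzalutamide in full serum. It was at 73.3, 72.2 and 73.6 FPKM in V16D with vehicle and at 73.4, 76.99 and 74.6 FPKM with enzalutamide, and its log2 fold change by counts was 0.01 ± 0.027 in V16D and -0.10 ± 0.071 in MR49F.

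**Figure D1:**
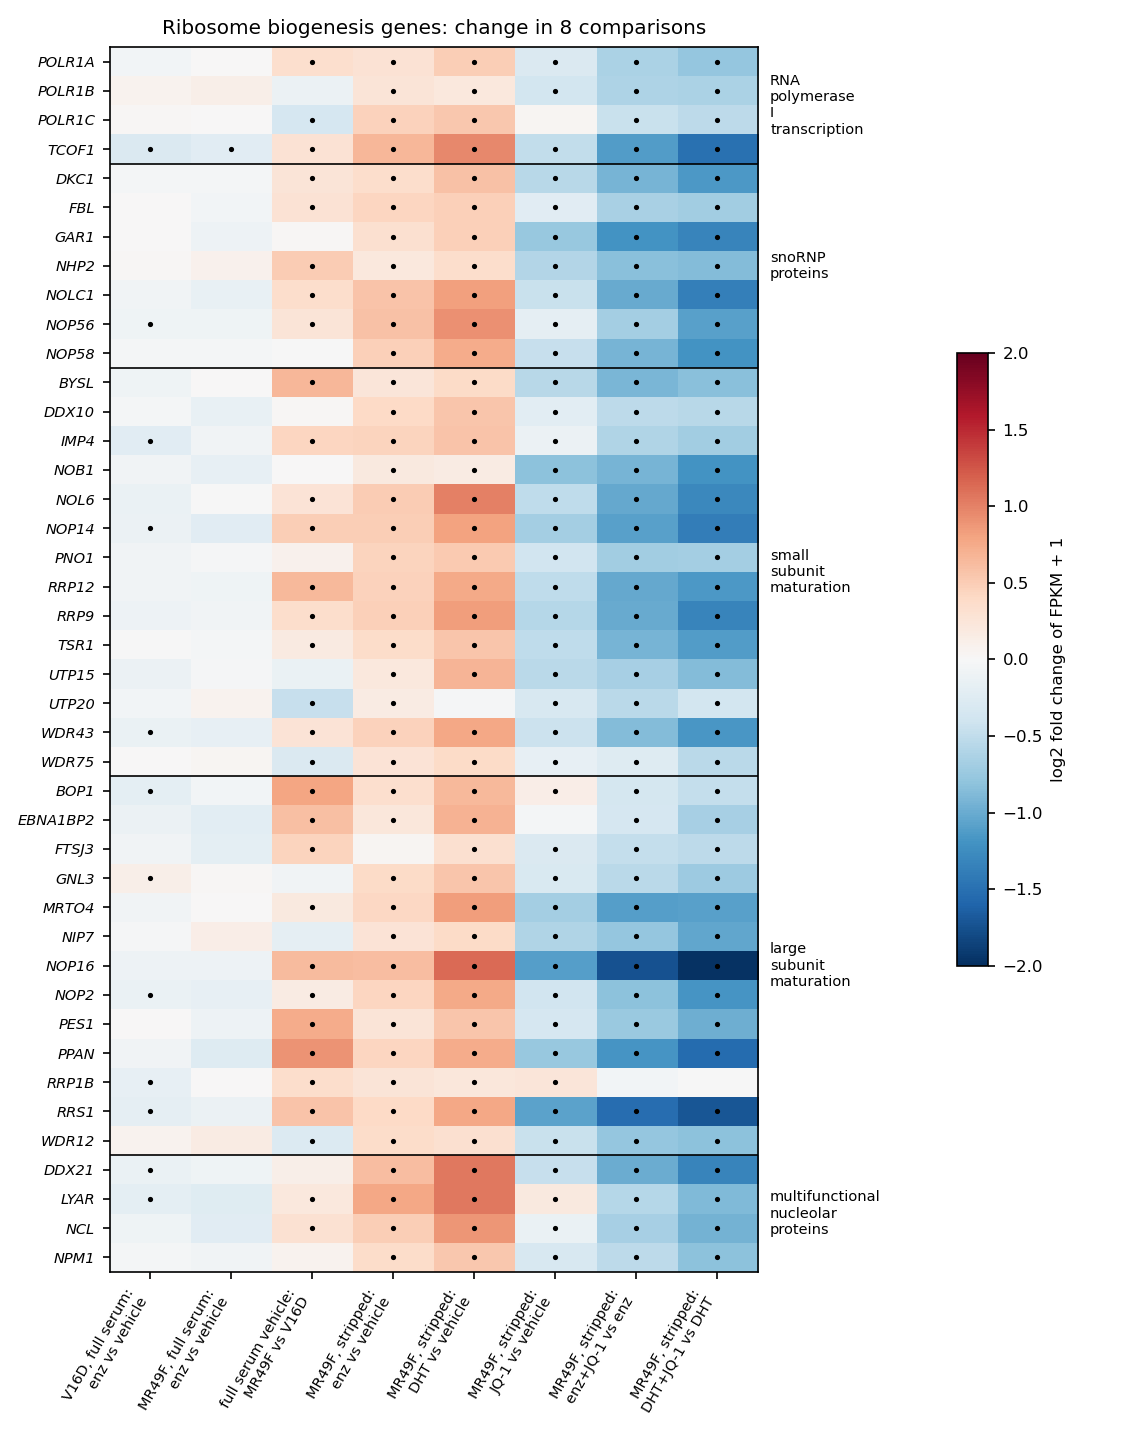
Heat map of the log2 fold change of FPKM + 1 for the 42 genes (rows, grouped by role) in 8 comparisons (columns); black dots mark an adjusted p of at most 0.05 by limma, and enz is enzalutamide. The first 2 columns are pale, and the columns for enzalutamide and DHT in charcoal-stripped serum are red in nearly every row while those for JQ-1 added to either are blue, with NOP16 and RRS1 the darkest.

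The lines differed before any drug. With vehicle in full serum, 27 of the 42 genes were higher in MR49F than in V16D and 5 were lower by counts, where 63.7% of all genes were called, 31.9% higher and 31.8% lower. The median log2 difference was 0.28 over the 42 genes and 0.00 over all genes (FPKM: 27 higher, 4 lower, median 0.26, with 62.6% of all genes called, 32.7% higher and 29.9% lower). Without the vehicle library that stood apart, 28 were higher and 5 lower by counts. Large subunit factors stood highest, with 10 of 13 higher and a median of 0.46.

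BOP1 and PES1 encode partners in the PeBoW complex, which is needed for maturation of the large subunit RNAs. BOP1 was at 25.8, 25.03 and 26.5 FPKM in V16D and at 41.9, 47.8 and 46.6 FPKM in MR49F, 1.77-fold higher by counts (log2 0.82 ± 0.052, adjusted p = 8.75e-08, edgeR). PES1 had a log2 difference of 0.77 ± 0.064. WDR12, the remaining partner in that complex, went the other way, at -0.28 ± 0.067 (adjusted p = 0.0029).

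BYSL and RRP12, small subunit factors, were higher by 0.72 and 0.69, and EBNA1BP2, a large subunit factor, by 0.62. Among the lower genes, UTP20 was at 9.70, 9.40 and 9.70 FPKM in V16D and at 6.42, 6.95 and 6.77 FPKM in MR49F, a log2 difference of -0.51 ± 0.047 (adjusted p = 1.91e-06). POLR1C, a subunit shared by RNA polymerases I and III, had -0.35 and WDR75, a small subunit processome protein, -0.31. NPM1, the most abundant of the genes, had a difference of 0.06 ± 0.048 and was not called (adjusted p = 0.255). In the wider list of 144 ribosome biogenesis genes, 73 of the 143 tested by counts were higher in MR49F and 29 lower. Of all genes, 31.9% were higher and 31.8% lower. DDX49 (1.22) and NVL (-1.15) stood at the ends of the wider list. MYC was higher in MR49F by 0.69 ± 0.071 (adjusted p = 4.78e-06).

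In charcoal-stripped serum the direction under enzalutamide was upward. In MR49F cells, 15 of 41 genes tested rose by counts and none fell, where 7.26% of all genes were called and 4.38% rose. By FPKM 41 of 42 rose, where 38.7% of all genes were called and 19.3% rose; all 15 called by counts were among them, where 4.32% of the genes tested by both readouts rose by both. The median log2 fold change was 0.35 by counts and 0.40 by FPKM, against 0.00 and -0.01 over all genes. Without the first vehicle replicate 9 were called by counts, and the DESeq2 Wald test called 10, where 3.67% and 3.37% of all genes were called.

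TCOF1 was at 8.33, 8.57 and 8.08 FPKM with vehicle and at 14.3, 13.3 and 13.9 FPKM with enzalutamide. The groups were far apart, and the log2 fold change was 0.91 ± 0.109 by counts (adjusted p = 1.83e-05, edgeR) and 0.67 ± 0.046 by FPKM (adjusted p = 1.11e-05, limma). LYAR was at 10.2, 11.9 and 11 FPKM with vehicle and at 18.7, 18.9 and 21.1 FPKM with enzalutamide, with 0.86 ± 0.172 by counts and 0.77 ± 0.067 by FPKM. DDX21, a nucleolar RNA helicase that couples RNA polymerase I and II transcription to rRNA processing, was at 37.4, 37.3 and 38.4 FPKM with vehicle and at 57.0, 56.4 and 62.3 FPKM with enzalutamide. Its log2 fold change was 0.70 ± 0.102 by counts.

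NOP58 and NOP56, the core pair of the box C/D snoRNPs, rose by 0.62 ± 0.117 and 0.59 ± 0.094 by counts. NPM1 rose from 463 ± 12.5 to 601 ± 29.8 FPKM (SD, n = 3), 26.0% by counts and 29.5% on the FPKM + 1 scale. The 4 multifunctional nucleolar proteins were all called by both readouts. FTSJ3, an rRNA methyltransferase whose exons overlap PSMC5 on the opposite strand, was the gene not called by FPKM, with 0.04 ± 0.062 there and 0.04 ± 0.118 by counts. In the wider list, 8 of 140 rose by counts and none fell, where 4.38% of all genes rose. By FPKM 81 of 144 rose and 3 fell, where 19.3% of all genes rose. KIAA0020 was among those that rose (0.66 ± 0.161 by counts). Its call by counts was lost with the DESeq2 Wald test (adjusted p = 0.159) and in 2 edgeR fits that left out 1 library. MYC rose by 0.61 ± 0.098 by counts (adjusted p = 0.000421) and 0.58 ± 0.056 by FPKM.

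The opposite directions of enzalutamide in the 2 sera were counted sample by sample. In FPKM, 18 of the 42 genes were lower in all 3 enzalutamide samples than in all 3 vehicle samples in full serum. Among the expressed genes, 11.8% were. In charcoal-stripped serum 40 of the 42 were higher in all 3, where 23.6% of the expressed genes were. In all, 17 of the 42 did both, where 5.59% of the expressed genes did both. The 17 included TCOF1, NOP14, RRS1, NCL, NPM1, DDX21 and LYAR. The full serum values include the MR49F vehicle library that stood apart, and the count of genes was not repeated without it. The experiments were separate and their counts differed in kind, so the difference between sera was not tested.

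DHT raised these genes further. In charcoal-stripped serum, 33 of 41 genes rose by counts and none fell, where 37.5% of all genes tested were called and 19.4% rose. By FPKM 41 of 42 rose, where 72.1% of all genes were called and 28.9% rose, and 32 rose by both readouts, as did 18.3% of all genes tested in both. The median log2 fold change was 0.67 by counts and 0.58 by FPKM, against -0.01 and -0.08 over all genes.

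TCOF1 was at 17.1, 16.2 and 18.3 FPKM with DHT, all above the 3 vehicle values, and its log2 fold change was 1.36 ± 0.101 by counts (adjusted p = 6.39e-11, edgeR) and 0.97 ± 0.051 by FPKM. NOL6, a small subunit processome protein, was at 13.5, 13.5 and 13.0 FPKM with vehicle and at 28.1, 27.9 and 27.4 FPKM with DHT, with 1.20 ± 0.116 by counts and 1.01 ± 0.037 by FPKM. NOP16, a large subunit factor, was at 21.9, 24.2 and 23.9 FPKM with vehicle and at 50.2, 52.0 and 54.4 FPKM with DHT. In each of these genes all 3 DHT libraries lay above all 3 vehicle libraries.

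LYAR and DDX21 rose by 1.16 ± 0.156 and 1.14 ± 0.096 by counts and by 1.06 and 1.05 by FPKM. NCL, at 194, 209 and 215 FPKM with vehicle, reached 365, 374 and 398 FPKM with DHT, 1.96-fold by counts and 1.84-fold by FPKM. NOP56 rose 1.98-fold and FBL, the methyltransferase of the box C/D snoRNPs, 1.35-fold by counts. The multifunctional nucleolar proteins had the highest median by role, 1.06 by counts and 0.96 by FPKM, followed by the snoRNP proteins by counts (0.84).

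In 3 genes the readouts gave estimates of opposite sign: NIP7, POLR1B and UTP20. UTP20 was at 5.92, 5.51 and 5.89 FPKM with vehicle and at 6.14, 5.68 and 5.16 FPKM with DHT, so the groups overlapped, and its FPKM log2 fold change was -0.03 ± 0.063, while its counts gave 0.53 ± 0.128 (adjusted p = 0.00185). POLR1B had -0.18 ± 0.178 by counts (adjusted p = 0.469) and 0.21 ± 0.056 by FPKM (adjusted p = 0.00923). In the wider list 59 of 141 rose and 5 fell by counts, where 37.5% of all genes were called and 19.4% rose. By FPKM 105 of 144 rose and 11 fell, where 72.1% of all genes were called and 28.9% rose. PAK1IP1 rose by 3.05 ± 0.174 by counts and 2.65 ± 0.052 by FPKM. MYC rose by 0.71 ± 0.091 by counts and 0.56 ± 0.049 by FPKM.

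**Figure D2:**
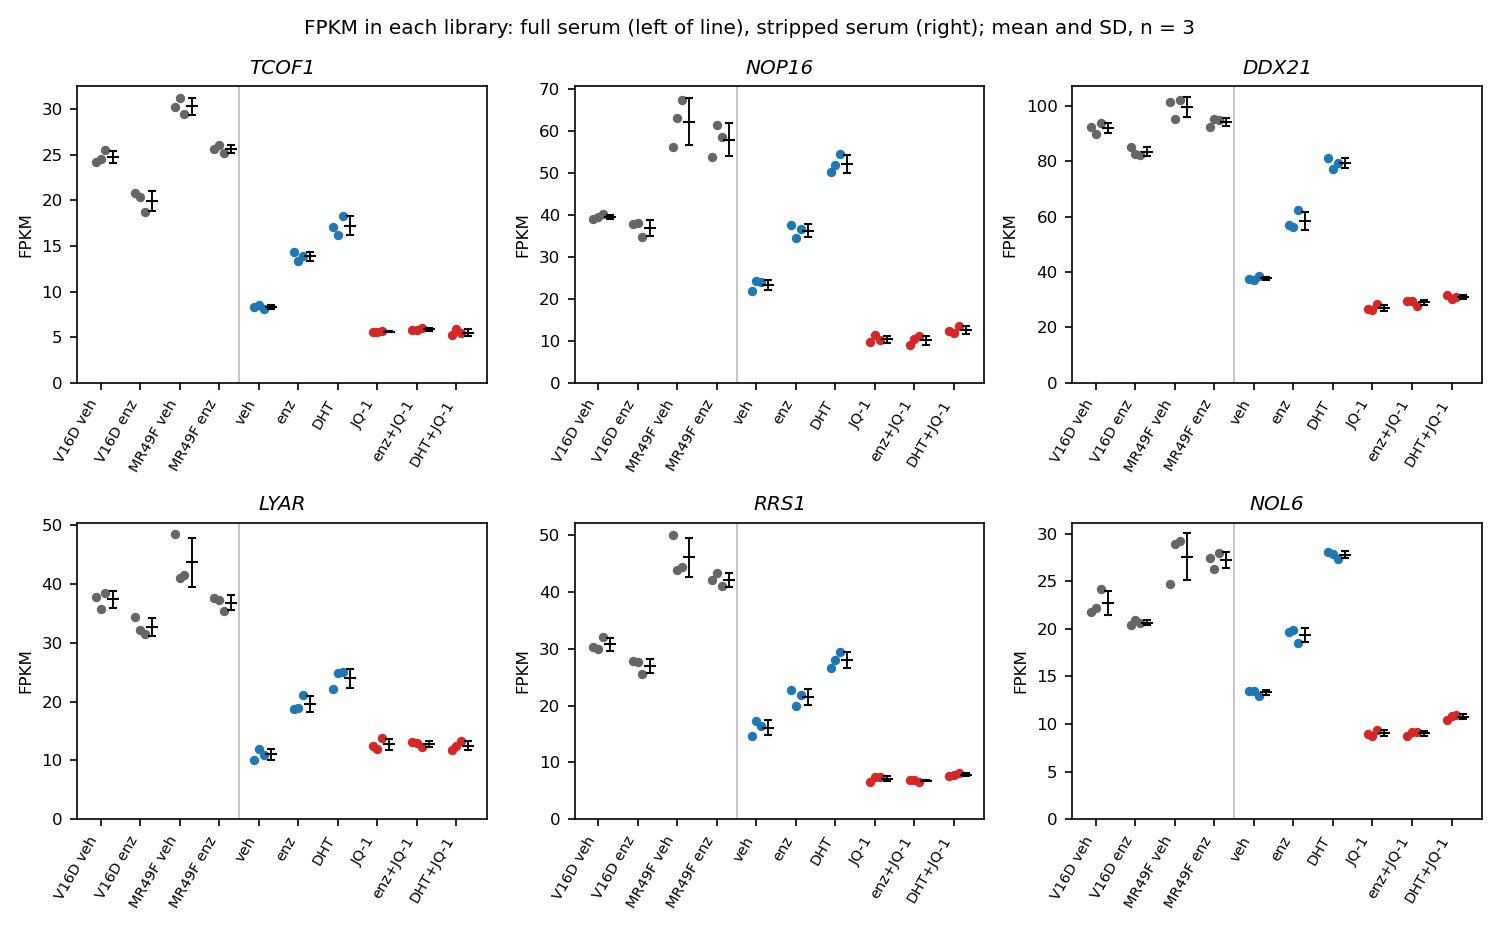
FPKM of TCOF1, NOP16, DDX21, LYAR, RRS1 and NOL6 in each of the 30 libraries (y axis, linear from 0), by group on the x axis; dots are libraries, and the dash with its bar is the mean and SD of 3 libraries. In charcoal-stripped serum (right of the line) the DHT values of TCOF1 lie at 16.2 to 18.3 FPKM above enzalutamide at 13.3 to 14.3 FPKM, and the 3 groups with JQ-1 lie together at 5.18 to 6.00 FPKM.

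The 2 ligands were given at different doses, 1 nM DHT and 10 μM enzalutamide, and were compared as given. DHT left 19 of 41 genes higher than enzalutamide by counts and none lower, where 19.4% of all genes were called and 10.3% were higher. By FPKM 30 of 42 were higher and 1, UTP20, lower, where 57.4% of all genes were called, 20.9% higher and 36.5% lower. The 19 were higher by both readouts, as were 9.85% of all genes tested in both. The median log2 difference was 0.30 by counts and 0.25 by FPKM. With the DESeq2 Wald test 11 were called by counts, and without the second enzalutamide replicate 12, where 8.83% and 13.3% of all genes were called.

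NOL6, at 19.6, 19.9 and 18.5 FPKM with enzalutamide, was higher with DHT by 0.68 ± 0.112 by counts (adjusted p = 0.000172, edgeR) and 0.50 ± 0.043 by FPKM. MRTO4, a large subunit factor, was higher by 0.63 ± 0.158 and NOP16 by 0.60 ± 0.143, and PES1 and EBNA1BP2 by 0.59 and 0.56. UTP20, at 6.55, 6.69 and 6.63 FPKM with enzalutamide, was lower with DHT by FPKM (-0.20 ± 0.061, adjusted p = 0.0201), with 0.18 ± 0.125 by counts (adjusted p = 0.36). Among other ribosome biogenesis genes, RSL24D1, a large subunit factor, was lower with DHT by 0.82 ± 0.095 and PAK1IP1 higher by 2.25 ± 0.147. MYC did not differ past the threshold between the ligands (0.08 ± 0.095 by counts, adjusted p = 0.61, and -0.02 ± 0.062 by FPKM).

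The next question was what the BET inhibitor did without a ligand. JQ-1 alone lowered 24 of 41 genes by counts and raised 2, TSR1 and RRP1B, where 46.6% of all genes were called, 23.9% lower and 22.8% higher. By FPKM 37 of 42 fell and 3 rose (BOP1, RRP1B and LYAR), where 75.1% of all genes were called, 42.6% lower and 32.5% higher. By both readouts 23 fell and RRP1B rose, against 21.3% lower and 21.9% higher among all genes tested in both. The median log2 fold change was -0.35 by counts and -0.44 by FPKM, against 0.00 and -0.06 over all genes. The DESeq2 Wald test called 9 by counts, all lower, where 24.6% of all genes with an adjusted p were called, so by that test the share of the 42 was near that of all genes. Without the first JQ-1 replicate or the second vehicle replicate 17 were called, all lower, where 40.5% and 41.6% of all genes were called.

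NOP16 was at 9.61, 11.3 and 10.3 FPKM with JQ-1, below the vehicle values of 21.9 to 24.2, with -1.41 ± 0.199 by counts (adjusted p = 8.62e-08, edgeR) and -1.10 ± 0.061 by FPKM. RRS1, which brings the 5S ribonucleoprotein into the large subunit, was at 14.7, 17.3 and 16.3 FPKM with vehicle and at 6.60, 7.37 and 7.51 FPKM with JQ-1, with -1.36 ± 0.188 by counts and -1.07 ± 0.066 by FPKM. These were the largest falls among the 42 by both readouts. UTP15 (-0.87 ± 0.323), BYSL (-0.66 ± 0.213) and MRTO4 (-0.63 ± 0.220) were also lower by both readouts, and each lost its call by the DESeq2 Wald test on counts. POLR1C, at -0.83 by counts, had 0.04 by FPKM.

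TCOF1 fell to 5.53, 5.60 and 5.68 FPKM, by 23.4% by counts and 29.2% on the FPKM + 1 scale. NCL was at 182, 187 and 196 FPKM with JQ-1, overlapping its vehicle values, with -0.12 ± 0.064 by counts (adjusted p = 0.128) and -0.13 ± 0.047 by FPKM (adjusted p = 0.0383). RRP1B, a nucleolar partner of protein phosphatase 1, rose by both readouts, from 9.90, 8.83 and 9.30 to 11.2, 11.02 and 11.4 FPKM (0.31 ± 0.125 by counts, adjusted p = 0.038, edgeR). Its call by counts was lost in 7 of 13 alternatives, the DESeq2 Wald test among them (adjusted p = 0.177), and its call by FPKM in none of 11. In the wider list 38 of 140 fell and 12 rose by counts, where 23.9% of all genes fell and 22.8% rose. By FPKM 89 of 143 fell and 14 rose, where 42.6% of all genes fell and 32.5% rose. RSL24D1 had the lowest value of that list, with a fall of 2.07 ± 0.091 by counts. MYC fell from 64.4, 67.1 and 67.9 to 35.3, 35.3 and 38.7 FPKM (-0.80 ± 0.091 by counts, adjusted p = 3.83e-10).

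TSR1, a maturation factor of the small subunit, was called in opposite directions by the readouts. In FPKM it was at 17.5, 17.8 and 17.3 with vehicle and at 12.3, 11.4 and 12.3 with JQ-1, a log2 fold change of -0.51 ± 0.040 (adjusted p = 6.35e-06, limma). By counts it was 0.24 ± 0.083 (adjusted p = 0.0143, edgeR), a call lost in 4 of 13 alternatives, the DESeq2 Wald test (adjusted p = 0.0573) and the fits without the first JQ-1, first vehicle or second vehicle replicate. TSR1 overlaps 1146 exonic bases of SRR, the serine racemase gene on the opposite strand, and SRR showed the mirrored pair of values, 0.89 ± 0.063 by FPKM and -0.91 ± 0.081 by counts. When JQ-1 was added to enzalutamide the same was seen for TSR1, with -0.93 ± 0.039 by FPKM and 0.41 ± 0.091 by counts, and there both calls held in every alternative run.

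**Figure D3:**
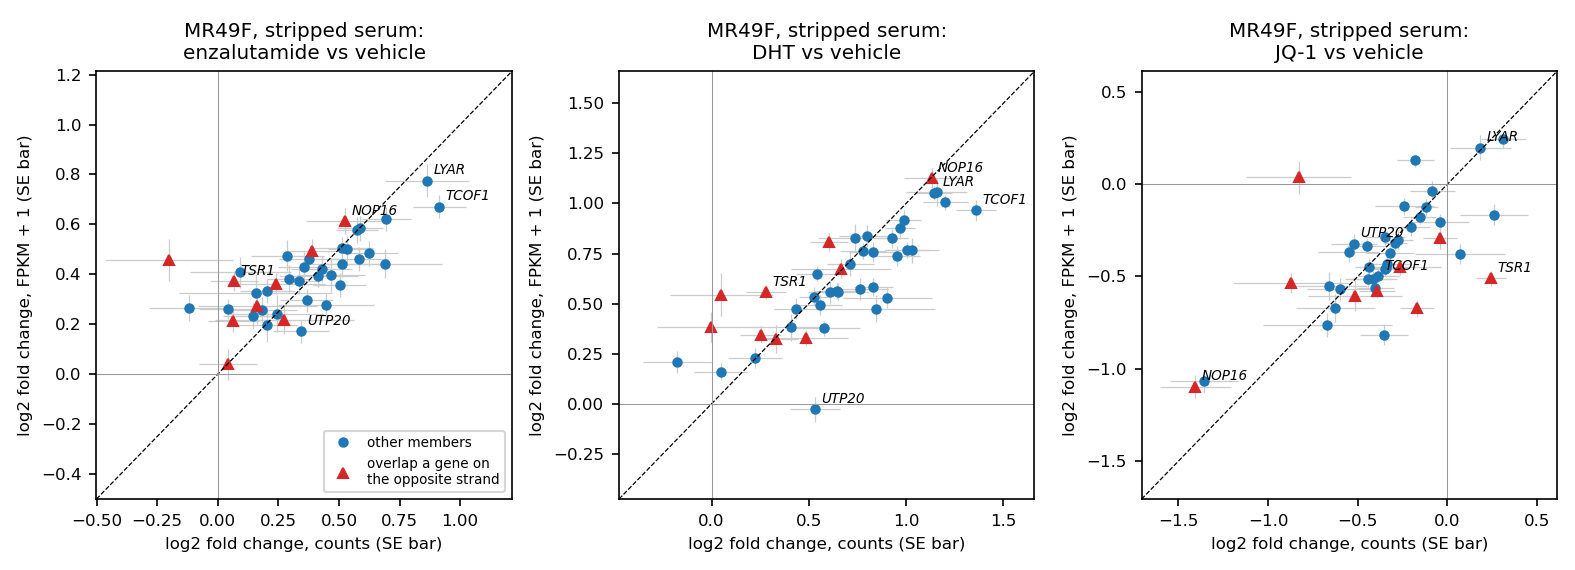
Log2 fold change by counts (x axis) against FPKM + 1 (y axis) for the genes tested by both, in 3 comparisons of MR49F cells in charcoal-stripped serum; bars are standard errors, the dashed line marks equal values, and red triangles are the genes that overlap a gene on the opposite strand. Most points lie near the line; TSR1 under JQ-1 (0.24 by counts, -0.51 by FPKM) and UTP20 under DHT (0.53 and -0.03) lie off it.

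JQ-1 added to a ligand lowered nearly all of the genes. Added to enzalutamide it lowered 32 of 40 genes by counts and raised 1, TSR1, where 45.1% of all genes were called, 23.2% lower and 22.0% higher. By FPKM 41 of 42 fell, where 75.7% of all genes were called and 44.4% fell, and the 32 fell by both readouts, as did 22.2% of all genes tested in both. The median log2 fold change was -0.61 by counts and -0.77 by FPKM. NOP16 went from 37.5, 34.5 and 36.8 FPKM to 8.99, 10.48 and 11.1 FPKM (-1.83 ± 0.209 by counts, adjusted p = 6.84e-08), and RRS1 from 22.8, 19.96 and 21.8 to 6.87, 6.94 and 6.65 FPKM (-1.62 ± 0.184). TCOF1 went to 5.81, 5.75 and 6.00 FPKM (-1.20 ± 0.114). NLE1 and RSL24D1 of the wider list fell by 1.48 and 1.91 by counts.

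Added to DHT, JQ-1 lowered 36 of 41 genes by counts and raised none, where 54.7% of all genes were called and 28.0% fell. By FPKM 41 of 42 fell, where 78.8% of all genes were called and 43.3% fell, and 36 fell by both readouts, as did 26.1% of all genes tested in both. The median log2 fold change was -0.89 by counts and -0.96 by FPKM, against 0.00 and -0.05 over all genes. NOP16 went to 12.4, 11.8 and 13.5 FPKM, far below its 3 DHT values, and its log2 fold change was -2.01 ± 0.167 by counts (adjusted p = 1.66e-12) and -1.97 ± 0.055 by FPKM. DDX21 went from 81.1, 77.3 and 79.4 FPKM to 31.8, 30.3 and 31.0 FPKM (-1.34 ± 0.083), and RRS1 from 26.7, 28.0 and 29.5 to 7.57, 7.78 and 8.14 FPKM (-1.88 ± 0.156).

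GAR1, a core protein of the H/ACA snoRNPs that rested on a median of 14.5 counted reads in charcoal-stripped serum, fell by 1.52 ± 0.339 by counts and by 1.32 ± 0.048 by FPKM. All 7 snoRNP proteins fell, with a median of -1.26 by counts. RRP1B was the gene not called by FPKM in either combination, at 11.2, 11.1 and 10.7 FPKM with DHT and JQ-1 against 11.5, 11.03 and 10.8 FPKM with DHT. PAK1IP1 of the wider list fell by 2.23 ± 0.146 and DHX37 by 1.99 ± 0.252. MYC fell by 2.04 ± 0.093 when JQ-1 was added to DHT and by 1.53 ± 0.101 when it was added to enzalutamide.

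Whether the ligands acted differently with JQ-1 present was tested as an interaction. For DHT, 19 of 41 genes had a lower effect of the ligand with JQ-1 than without it by counts, where 12.3% of all genes were called and 6.55% were lower, and 41 of 42 by FPKM, where 48.0% were called and 23.0% were lower. The 19 were lower by both, as were 6.29% of all genes tested in both. The median difference was -0.58 by counts and -0.59 by FPKM. TCOF1 had the largest, -1.41 ± 0.150 by counts (adjusted p = 1.01e-09, edgeR), since DHT raised it to 17.2 ± 1.05 FPKM from 8.32 ± 0.245 without JQ-1 and it stood at 5.51 ± 0.337 against 5.60 ± 0.0751 FPKM with JQ-1. LYAR followed with -1.06 ± 0.219, DDX21 with -0.99 ± 0.127, NOP58 with -0.97 ± 0.169 and WDR43, a small subunit processome protein, with -0.88 ± 0.175.

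For enzalutamide, 4 of 41 genes were called by counts, all lower (TCOF1, DDX21, NOLC1 and NCL), where 0.895% of all genes were called and 0.404% were lower. By FPKM 35 of 42 were called, where 19.2% of all genes were called and 11.6% were lower, and the 4 were lower by both, as were 0.4% of all genes tested in both. TCOF1 had -0.81 ± 0.157 by counts and -0.62 ± 0.054 by FPKM, and NCL -0.51 ± 0.092 and -0.53 ± 0.063. NOLC1, a chaperone of snoRNPs, had -0.53 ± 0.114 by counts. DDX21 lost its call by counts with the DESeq2 Wald test (adjusted p = 0.0624) and in 6 of the 12 edgeR fits that left out 1 library (adjusted p from 0.0764 to 0.163). Without the first enzalutamide and JQ-1 replicate 2 genes were called by counts, where 0.641% of all genes were called.

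As a description of the size that remained, the ligand effect with JQ-1 present was taken as the effect without JQ-1 plus the interaction. By counts these terms came from separate fits, so their sum is approximate. The median of this sum was 0.01 for DHT and 0.00 for enzalutamide by FPKM, and 0.10 and 0.05 by counts. Single genes lay on both sides of these medians. For DHT the sums ran from -0.22 (NOB1) to 0.42 (MRTO4) by FPKM and from -0.54 (NOB1) to 1.04 (UTP15) by counts. NOP16 kept 0.25 by FPKM and 0.53 by counts. For enzalutamide they ran from -0.15 (FTSJ3) to 0.18 (WDR75) by FPKM and from -0.48 (GAR1) to 0.41 (POLR1C) by counts. The sums of single genes were not tested. Relative to vehicle without JQ-1, the median over the genes in each library was -0.46, -0.46 and -0.39 with JQ-1 alone, -0.42, -0.43 and -0.41 with enzalutamide and JQ-1, and -0.40, -0.38 and -0.36 with DHT and JQ-1 by FPKM. By counts these 3 groups lay at -0.35 to -0.37, -0.24 to -0.34 and -0.19 to -0.25. MYC also had negative interactions, -1.24 ± 0.130 with DHT and -0.72 ± 0.136 with enzalutamide by counts.

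**Figure D4:**
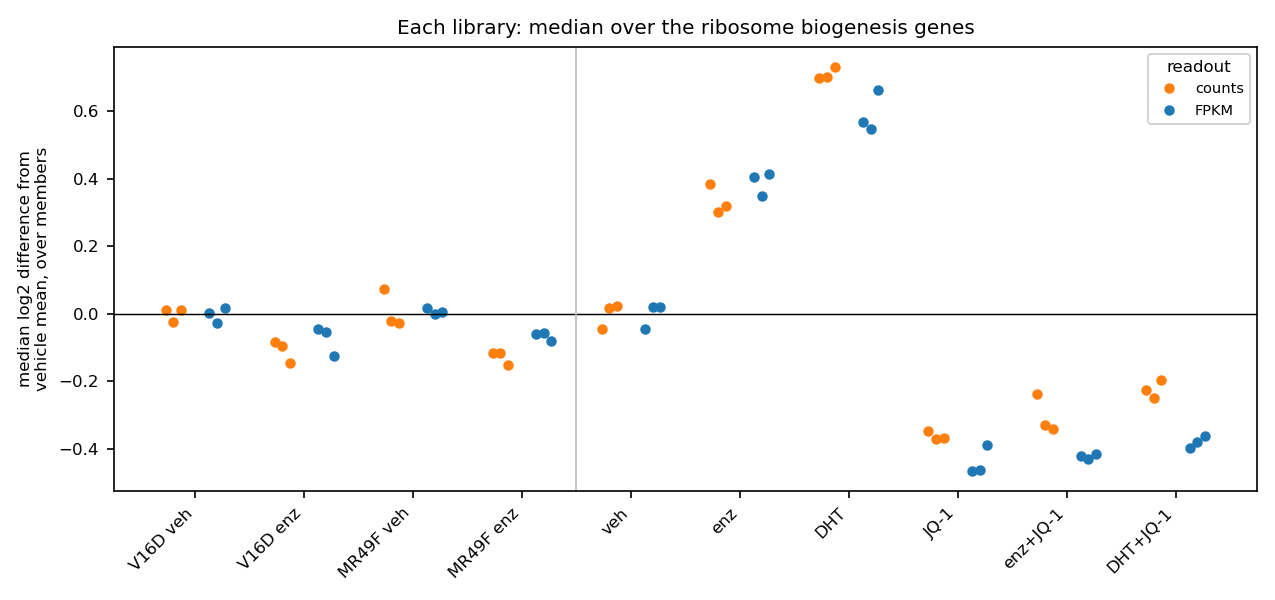
Median over the genes of the log2 difference from the mean of the matching vehicle group (y axis), for each library by group (x axis) and by readout (color). In charcoal-stripped serum the DHT libraries lie at 0.55 to 0.73 and the enzalutamide libraries at 0.30 to 0.41, all above vehicle, and the 9 libraries with JQ-1 lie below it.

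**Figure D5:**
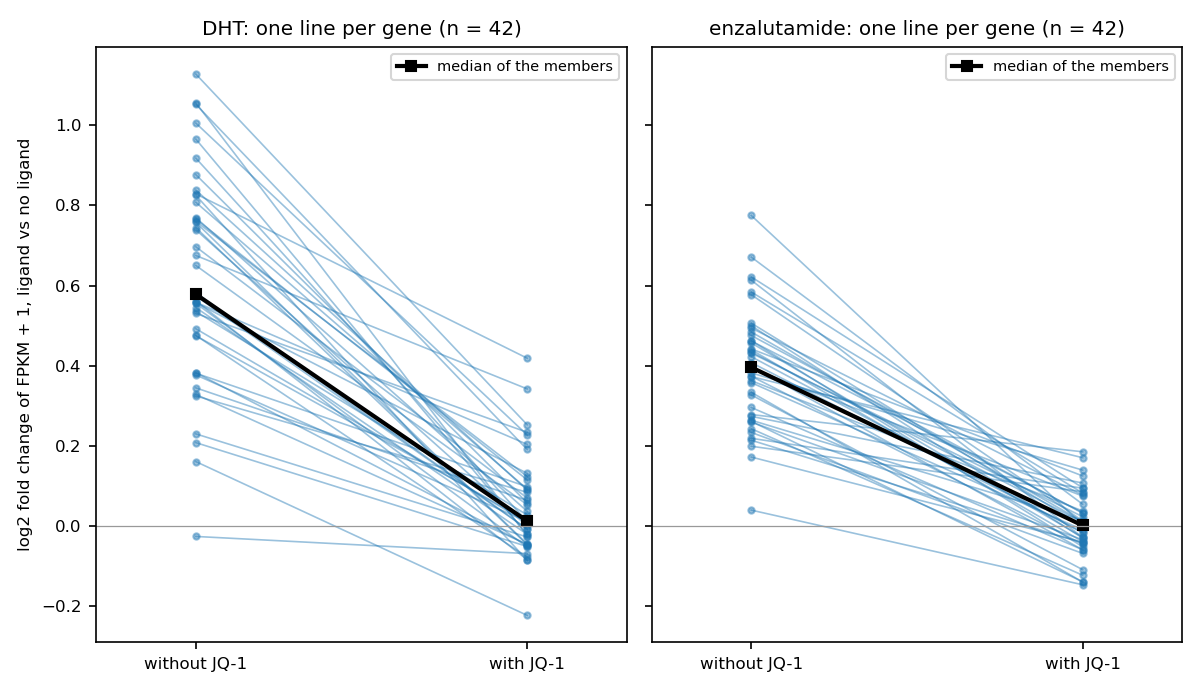
Log2 fold change of FPKM + 1 for DHT (left) and enzalutamide (right) against no ligand, without and with JQ-1, with 1 line per gene (n = 42) and the median in black. The median goes from 0.58 to 0.01 for DHT and from 0.40 to 0.00 for enzalutamide. With JQ-1 single genes lie between -0.22 and 0.42 for DHT and between -0.15 and 0.18 for enzalutamide.

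The genes with and without the E-box were set side by side. With DHT, the 17 with it had a median log2 fold change of 0.76 by counts and 0.70 by FPKM, and the others with a promoter entry 0.52 and 0.54. With JQ-1 alone the medians were -0.34 and -0.35 by counts and -0.38 and -0.41 by FPKM. The ranges overlapped widely, since the DHT changes by counts ran from 0.41 to 1.20 with the E-box and from -0.18 to 1.13 without it, and this difference was not tested.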

How the data were processed

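Poly(A) RNA of 30 samples was sequenced from strand-specific libraries. Per the labels and the methods, the authors aligned reads with TopHat2 2.0.9 to hg19, deposited whole-number read counts per gene symbol from HTSeq, and deposited FPKM per transcript from Cufflinks 2.1.1, which divide by transcript length and library total. Which strand option HTSeq was run with is not given in the sources used here.

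Groups followed the labels. Counts were normalized by TMM, filtered with filterByExpr (at least 10 counts, total 15) and tested with the quasi-likelihood test of edgeR 4.0.16 in R 4.3.3. FPKM were summed by symbol, kept at 1 FPKM or more in 3 samples of the fit, and log2(value + 1) was tested with limma 3.58.1, so that fold changes of low genes are understated. Only the groups of each comparison entered its fit, p-values were adjusted by Benjamini-Hochberg over all genes tested, and a gene was called at an adjusted p of 0.05 or less. The steps were tested on simulated data. Alternatives were DESeq2 1.42.0, other scalings, filters and pseudocounts, a single fit of all groups, a replicate block, and leaving out each replicate. The ± values beside log2 fold changes are standard errors.

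The 42 genes, the list of 144 other ribosome biogenesis genes and the tests were chosen with earlier results of these data known. Members picked by rule were the 5 with the largest change by counts past the threshold in each comparison. A mean of at least 5 CPM was asked, and in charcoal-stripped serum a call by both readouts. Up to 3 genes of the wider list were picked in the same way. Not all of the genes picked are named in each comparison or printed with a standard error and p-value. Other genes were named after their values were seen. Comparisons in charcoal-stripped serum share the vehicle, enzalutamide, DHT or JQ-1 samples.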

Additional observations from a re-analysis of the deposited data

Results flagged for a closer look

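The effect of DHT on the genes differed with and without JQ-1 by the interaction test: 19 of 41 were called by counts (edgeR) and 41 of 42 by FPKM (limma), where 12.3% and 48.0% of all genes were called. By counts the log2 differences were -1.41 for TCOF1, -1.06 for LYAR, -0.99 for DDX21, -0.97 for NOP58 and -0.88 for WDR43.

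The effect of enzalutamide also differed with and without JQ-1, in 4 of 41 genes by counts and 35 of 42 by FPKM, where 0.895% and 19.2% of all genes were called. The log2 differences by counts were -0.81 for TCOF1, -0.56 for DDX21, -0.53 for NOLC1 and -0.51 for NCL, and DDX21 lost its call by counts with DESeq2 and in 6 of the 12 fits that left out 1 library. Both interactions share the vehicle and JQ-1 samples.

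In MR49F cells, 17 of the 42 genes went in opposite directions with enzalutamide by FPKM. They were lower in every full serum sample and higher in every charcoal-stripped serum sample. Among the expressed genes, 5.59% did both. The full serum values include the MR49F vehicle library that stood apart. The difference between sera was not tested.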

How the results depend on the processing

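Under the alternatives run, no gene picked by rule reversed its direction. The net direction of the calls and the median of each comparison with called genes did not reverse either. The direction of every other called gene was not checked. Counts of calls in this section show only how far they moved with the setting. The share of all genes called under the same setting also moves and is not given beside them here. The median difference between the lines in response, where no gene was called, took either sign, from -0.03 to 0.01 by counts when 1 replicate was left out. With library size as the sole scaling the median over the genes by counts was 0.53 for DHT, 0.21 for DHT against enzalutamide, -0.54 for the DHT by JQ-1 interaction, 0.23 between the lines and -0.067 for V16D enzalutamide, with 17 genes called in V16D and 3 in MR49F in full serum. This scaling moved the median of all genes to -0.15 for DHT and -0.12 for DHT against enzalutamide, and the share of called genes that were higher from 51.8 to 35.2% and from 53.0 to 33.8%; in full serum that share went from 48.6 to 63.3% in V16D and from 45.5 to 59.0% in MR49F. FPKM rescaled by the median ratio gave medians of 0.65 for DHT, 0.32 for DHT against enzalutamide, -0.39 for JQ-1, -0.70 for JQ-1 added to enzalutamide, -0.92 for JQ-1 added to DHT and -0.11 for MR49F in full serum, and 21 genes called in V16D. The share of called genes that were higher then went from 58.4 to 47.7% in V16D, from 54.6 to 43.9% in MR49F and from 36.4 to 48.1% for DHT against enzalutamide. With log2(FPKM + 0.1) the medians were -1.01 for JQ-1 added to DHT and -0.84 for JQ-1 added to enzalutamide. The DHT median by counts was 0.72 with DESeq2, 0.72 without a filter and 0.63 with 10 counts in every sample. DESeq2 called 9 genes for JQ-1 alone and 11 for DHT against enzalutamide. A single fit of all groups called 13 genes in V16D and 19 in MR49F by counts, and 7 in MR49F by FPKM.

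Same-numbered replicates had correlations of -0.158 to 0.171 and are not paired; with the replicate block 5 genes were called by FPKM in V16D and 0 in MR49F in full serum. Without the genes that overlap the opposite strand, an alternative chosen after seeing the data, the medians were 0.77 by counts and 0.65 by FPKM for DHT, -0.63 by counts for the DHT interaction, -0.96 by counts for JQ-1 added to DHT, -0.74 by FPKM for JQ-1 added to enzalutamide and -0.38 by FPKM for JQ-1. The cause of these moves was not tested.

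Leaving out 1 replicate at a time, calls by counts ranged from 1 to 17 for MR49F in full serum, 9 to 17 for enzalutamide in charcoal-stripped serum, 12 to 21 for DHT against enzalutamide, 17 to 24 for JQ-1 alone and 2 to 4 for the enzalutamide interaction; by FPKM they ranged from 0 to 2 for MR49F and 5 to 10 for V16D, with 7 without V16D vehicle replicate 1 and 5 without replicate 3. Medians by counts ranged from 0.66 to 0.71 for DHT, 0.26 to 0.37 for DHT against enzalutamide, -0.95 to -0.81 for JQ-1 added to DHT, -0.67 to -0.59 for JQ-1 added to enzalutamide, -0.66 to -0.53 for the DHT interaction and -0.34 to -0.26 for the enzalutamide interaction. By FPKM they ranged from -0.81 to -0.74 for JQ-1 added to enzalutamide, 0.24 to 0.26 between the lines and -0.0092 to 0.033 for the difference between the lines in response. The small share of reads counted on genes limits the counts in charcoal-stripped serum, where GAR1 had 3 to 36 reads and UTP15 5 to 30.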
